A study of Mus musculus with 9 samples.

Results

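The genes described here are the Wnt ligands and the Frizzled, Lrp, Ror and Lgr receptors, with the R-spondins, the secreted Wnt antagonists and the transcription readouts Axin2, Lef1 and Tcf7. They were chosen by symbol alone, which gave 53 members of the 31053 genes in the day 4 feature tables. There are 19 Wnt ligands, 10 Frizzled receptors (Fzd), 4 Dickkopf proteins (Dkk), 4 secreted Frizzled-related proteins (Sfrp), 4 R-spondins (Rspo), 3 Lgr receptors, both Lrp co-receptors and both Ror receptors. Wif1, Notum, Axin2, Lef1 and Tcf7 complete the list. All 53 were present in the tables of all 9 libraries.

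Wnt proteins are secreted, lipid-modified signals. They bind Frizzled receptors, and together with the co-receptors Lrp5 and Lrp6 this keeps beta-catenin from being degraded, so that it can act with the DNA-binding proteins of the TCF and LEF family. Axin2 is a common target of that signal and also a brake on it. Ror1 and Ror2 take part in Wnt signalling that does not use beta-catenin, for which Wnt5a is the best known ligand. R-spondins bind Lgr4, Lgr5 and Lgr6 and keep Frizzled proteins at the cell surface. The Sfrp proteins and Wif1 bind Wnts outside the cell, Dkk1, Dkk2 and Dkk4 bind the Lrp co-receptors, and Notum removes the lipid. In the embryo this pathway patterns the limb, face and spinal cord, and it is used by mesenchyme, neural and muscle precursors alike.

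Mouse embryonic fibroblast (MEF) cultures on the way to induced neurons (iNs) were measured cell by cell. All cultures had received viruses for inducible transcription factors that turn fibroblasts into neurons, and doxycycline in neuronal medium was given from day 0. WT, Per1-/- and Per2-/- cultures gave 1 library each on every one of days 4, 7 and 10, 9 in all. By the methods of the study the mutants carried targeted alleles of the clock genes Per1 and Per2, cells of several mid-gestation embryos without head and heart were pooled, and sex was not determined.

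The values are UMI counts (counted RNA molecules) from a 3' assay, summed over the cells of a class in a library and scaled to the total of that sum (CPM). They count RNA near the 3' end, so levels are compared between cells for 1 gene and not between genes. The 9 libraries held between 126625215 UMI (WT, day 10) and 353198559 UMI (Per1-/-, day 4). The WT day 10 library stood apart, with a median of 3552 UMI per barcode against up to 25795 in the others and 55.4% of barcodes within the limits on cells. Pairs of libraries shared 13 to 365 cell barcodes (median 38, over 36 pairs), and the largest overlap was 2.89% of the barcodes of the smaller library. Per1 was at 9.15, 9.46 and 10.3 CPM over all cells in the Per1-/- libraries (days 4, 7 and 10), against 6.31, 6.62 and 7.72 CPM in WT, and Per2 was not lower in the Per2-/- libraries either. Whether the counted 3' ends lie outside the targeted part is not given in the sources used here, so these values do not check the labels. The study's own check was of the proteins, by western blot, and is not among the values used here. The genotypes below are those of the labels. The X-inactivation RNA Xist was at 0.0679 and 0.0599 CPM in the Per1-/- libraries of days 7 and 10 and at 346 CPM or more in the other libraries. Y-linked RNA over all cells was at 117, 209 and 216 CPM in Per1-/- (days 4, 7 and 10). It was at 114, 51.0 and 90.6 CPM in Per2-/- and at 61.5, 53.2 and 55.5 CPM in WT. The sex mix of the cells thus differed over days in Per1-/-, and Y-linked RNA also moved in Per2-/-. Day cannot be told apart from such differences between cultures. A fit with Y-linked RNA as a term was therefore one of the alternatives.

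Of 73557 cells kept, 31124 were fibroblast-like, 10003 neuron-like, 6483 macrophage-like, 4618 skeletal muscle-like, 2518 Schwann-like, 977 astrocyte-like and 421 mesothelial-like, and 17413 stayed unnamed. The members and the other Wnt pathway genes were not used for clustering. The clusters were named by markers, so these are not an independent check: all 18 neuron, 17 macrophage, 11 Schwann and 10 mesothelial markers were above the fibroblast-like level, as were 10 of 11 astrocyte markers (Gjb6 had a median of 0) and 14 of 15 muscle markers (Myf5 had a median of 0).

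Levels spread over a wide range. By the highest mean over libraries in any named class, 25 members reached at least 20 CPM, 12 lay between 5 and 20 CPM and 8 between 1 and 5 CPM. The remaining 8 stayed under 1 CPM everywhere. They were the ligands Wnt3a, Wnt8a, Wnt8b and Wnt9b and the antagonists or enhancers Dkk4, Sfrp4, Sfrp5 and Rspo4.

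In fibroblast-like cells the secreted modulator Sfrp2 was at 618 ± 434 CPM (SD, n = 9 libraries), Rspo3 at 284 ± 117 CPM, Sfrp1 at 255 ± 144 CPM and Dkk2 at 254 ± 132 CPM, with the same n. Dkk3, a divergent Dickkopf protein, was at 31.8 ± 6.51 CPM and Rspo2 at 27.1 ± 9.21 CPM. Of the ligands, Wnt5a alone was above 20 CPM in this class, at 146 ± 50.8 CPM. The spread of Sfrp2, Sfrp1 and Dkk2 was large for their means. Below, Sfrp2 is taken up by day and by cluster and Dkk2 by cluster. Among the receptors, Fzd2 was at 191 ± 25.2 CPM, Fzd4 at 76.7 ± 32.2 CPM, Fzd1 at 60.7 ± 22.9 CPM and Fzd8 at 25.2 ± 11 CPM. The co-receptor Lrp6 was at 143 ± 31.7 CPM and Lrp5 at 28.3 ± 7.77 CPM. The R-spondin receptors Lgr5 and Lgr4 were at 74.8 ± 34.4 CPM and 31.6 ± 5.96 CPM, and Ror2 was at 20.8 ± 3.81 CPM.

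**Figure D1:**
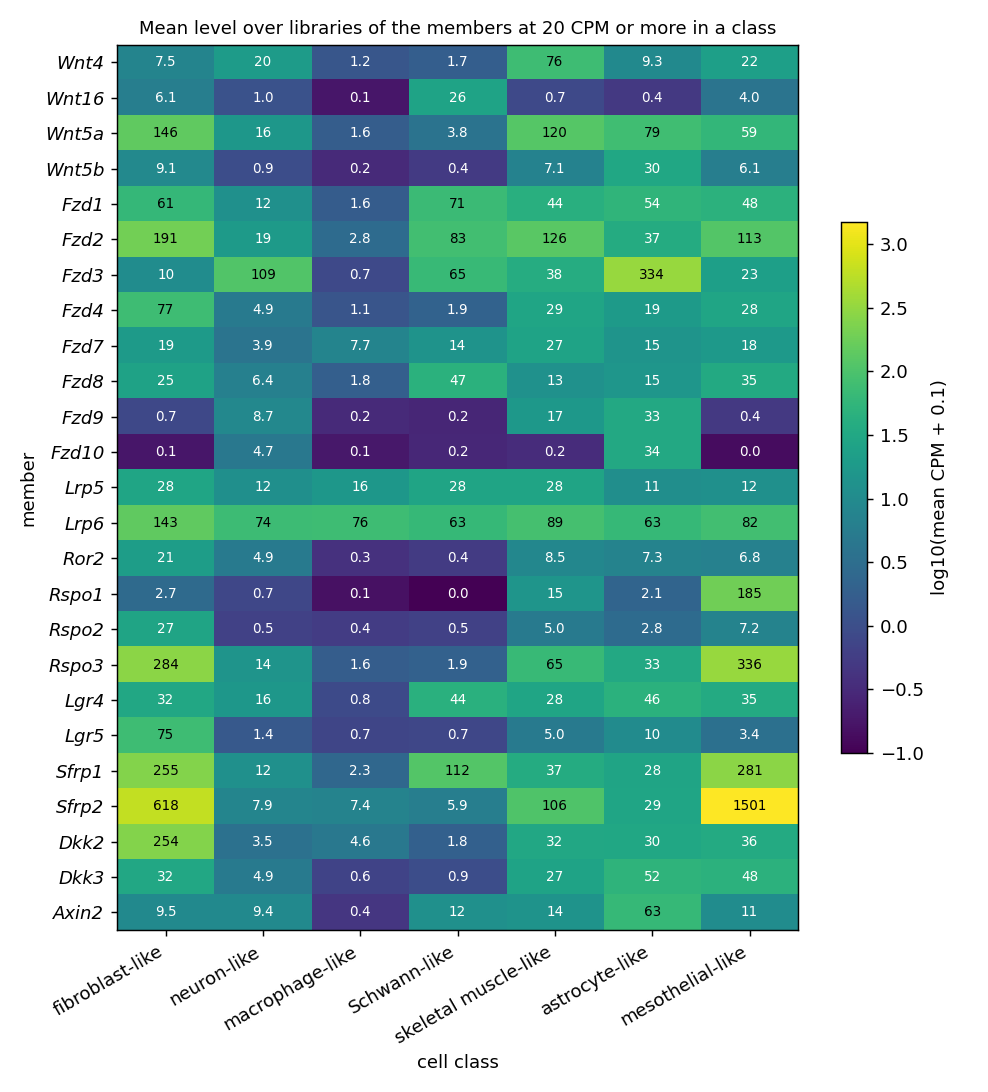
Mean CPM over libraries (number in each cell, colour on a log10 scale of CPM + 0.1) of the 25 members that reached 20 CPM in at least 1 of 7 cell classes. Columns are the classes and rows the members ordered by family. Sfrp2, Rspo3, Sfrp1 and Dkk2 are bright in the fibroblast-like column, the macrophage-like column is dark apart from Lrp6 and Lrp5, and Fzd3, Fzd9, Fzd10 and Axin2 are highest in the astrocyte-like column.

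To see which members differ between the neurons being made and the fibroblast-like cells of the same cultures, the 2 classes were compared within libraries. Of the 44 members with enough counts to test, 6 were higher in neuron-like cells and 31 were lower. Over all 17280 genes tested 81.2% were called, 39.8% higher and 41.4% lower. The median log2 fold was -2.38 over the members and -0.01 over all genes. The filter on low counts kept a member with at least 0.249 CPM in at least 2 sums. A member that passed through 1 class alone was kept for its level there. The filter thus favoured a difference, although not all such members were called. The counts therefore describe the tested members and not all 53, and 37 members passed the filter in both classes, of which 3 were higher and 28 lower.

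The secreted antagonists Dkk2 and Sfrp2 had the lowest log2 folds of the tested members. Dkk2 (ENSMUSG00000028031, chromosome 3, 132085292 to 132180304, plus strand, GRCm38) was at 85.7 to 474 CPM (median 249 CPM) in the fibroblast-like cells of the 9 libraries and at 1.59 to 5.50 CPM (median 3.64 CPM) in the neuron-like cells, a log2 fold of -6.68 ± 0.16 (edgeR adjusted p = 3.14e-11). Sfrp2 (ENSMUSG00000027996, chromosome 3, 83766321 to 83774316, plus strand) was at 154 to 1392 CPM (median 463 CPM) and 3.45 to 15.7 CPM (median 5.92 CPM), a log2 fold of -6.59 ± 0.22 (edgeR adjusted p = 1.95e-10). In both genes the lowest fibroblast-like value was above the highest neuron-like value. By the same test the log2 fold was -6.08 ± 0.24 for Rspo2, -6.06 ± 0.21 for its receptor Lgr5, -5.76 ± 0.22 for Ror1, -4.92 ± 0.09 for Sfrp1 and -4.68 ± 0.21 for Rspo3. Among the ligands it was -5.69 ± 0.19 for Wnt2 and -5.27 ± 0.31 for Wnt11, and among the receptors -4.26 ± 0.29 for Fzd4. In droplet data free RNA of lysed cells can add to low levels. The 5 collagen and proteoglycan references (Col1a1, Col1a2, Col3a1, Dcn and Lum) were at 1.65% to 5.86% of their fibroblast-like level in the neuron-like cells, and 9 of 50 members, among them Sfrp2 and Dkk2, were at or under the highest of them. The part of free RNA in their neuron-like levels was not tested.

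Of the 6 members higher in neuron-like cells 3 are Frizzled receptors. Fzd3, a receptor known for its part in axon tracts, was at 61.8 to 134 CPM (median 116 CPM) in neuron-like and at 8.91 to 11.9 CPM (median 10.5 CPM) in fibroblast-like cells, a log2 fold of 2.84 ± 0.09 (edgeR adjusted p = 1.02e-10). Fzd9 (ENSMUSG00000049551, chromosome 5, 135248938 to 135251230, minus strand) was at 6.53 to 10.9 CPM (median 8.47 CPM) against 0.310 to 1.58 CPM (median 0.499 CPM), a log2 fold of 3.30 ± 0.27 (edgeR adjusted p = 3.80e-07). Fzd10 (ENSMUSG00000081683, chromosome 5, 128600844 to 128604093, plus strand) was at 0.687 to 9.09 CPM (median 4.67 CPM) against 0.0134 to 0.151 CPM (median 0.0701 CPM), a description with no test, since it passed the filter through the neuron-like cells alone. For Fzd3 and Fzd9 the ranges of the classes did not overlap. Between these classes 81.2% of all genes were called. The share of all genes with separate ranges is not given, here or where ranges are compared elsewhere in this text. The other 7 Frizzled receptors were lower, so the family was divided between the classes, also with Fzd10 left out. Wnt4 was also higher, with a log2 fold of 1.56 ± 0.52 over all days, but on day 4 it was at 13.5, 19.3 and 18.4 CPM in neuron-like and 26.7, 12.7 and 13.6 CPM in fibroblast-like cells (WT, Per1-/- and Per2-/-), with WT lower in neuron-like cells, and it fell in fibroblast-like cells afterwards. Sfrp5 and Wnt3, at 0.625 and 0.611 CPM in pooled neuron-like cells, passed the filter there alone. Wnt3, with 92 UMI in neuron-like and 15 in fibroblast-like cells, was 33.6-fold higher by pooled CPM, a description with no test. Its exact binomial 95% interval, 19.3 to 62.4, covers counting error only and not the spread between libraries.

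Promoters of members that differed between these classes are shown because TCF and LEF proteins, through which beta-catenin acts, bind DNA with the letters CTTTGAT or CTTTGAA. The windows run from 250 bases before to 50 bases after the annotated start (RefSeq, GRCm38.p6) and capitals mark a match to these letters on either strand. Wnt11, which was lower in neuron-like cells, has 2 windows, of which the one shown (chr7:98834862-98835161, plus strand) holds 1 match, at position -51 from the start, and the other holds none. The windows of Fzd10 (chr5:128600856-128601155, plus strand) and Fzd9 (chr5:135250998-135251297, minus strand), which were higher, hold none, which says only that these letters are not in them. No Fzd3 promoter is in the table.
Wnt11: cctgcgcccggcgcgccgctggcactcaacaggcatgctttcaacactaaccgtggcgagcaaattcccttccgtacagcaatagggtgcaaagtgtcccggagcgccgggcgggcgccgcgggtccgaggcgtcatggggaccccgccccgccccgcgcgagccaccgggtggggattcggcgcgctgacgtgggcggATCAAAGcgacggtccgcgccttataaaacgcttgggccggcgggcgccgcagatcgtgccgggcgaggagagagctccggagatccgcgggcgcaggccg
Fzd10: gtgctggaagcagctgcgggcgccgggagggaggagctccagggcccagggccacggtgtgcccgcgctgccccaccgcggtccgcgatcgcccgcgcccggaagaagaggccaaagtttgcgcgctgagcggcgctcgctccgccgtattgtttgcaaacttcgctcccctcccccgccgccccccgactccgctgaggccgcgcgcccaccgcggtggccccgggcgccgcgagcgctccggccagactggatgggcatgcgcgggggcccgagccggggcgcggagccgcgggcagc
Fzd9: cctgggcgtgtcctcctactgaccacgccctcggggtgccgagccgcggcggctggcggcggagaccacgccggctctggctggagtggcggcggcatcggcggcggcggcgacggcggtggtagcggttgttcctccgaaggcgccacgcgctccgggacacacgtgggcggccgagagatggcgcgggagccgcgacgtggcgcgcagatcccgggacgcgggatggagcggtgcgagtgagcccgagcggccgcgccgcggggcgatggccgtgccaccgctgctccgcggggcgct
Promoter windows were found for 35 of the 53 members (42 windows). CTTTGAT or CTTTGAA was in 3 of these (7.14%, those of Dkk1, Wnt11 and Wnt5b) and in 8.65% of all 32851 windows of the same length.

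Among the other 44 Wnt pathway genes with enough counts (of a list of 45), 17 were higher and 24 lower in neuron-like cells. Of all genes 81.2% were called in this comparison, 39.8% higher and 41.4% lower. The scaffold Apc of the beta-catenin destruction complex had a log2 fold of 1.95 ± 0.05 and Daam1, which links Wnt signals to actin, of 2.13 ± 0.06. The planar polarity cadherin Celsr3 reached 6.42 ± 0.24. Of the TCF genes outside the list of members, Tcf7l1 and Tcf7l2 were lower, at -4.87 ± 0.19 and -3.88 ± 0.15.

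The change over days was compared within the fibroblast-like class, with the genotypes as the repeats of a day. By day 7, 7 members rose and 2 fell of 44 tested, while 2.95% of all genes were called (1.38% higher and 1.57% lower). By day 10, 12 rose and 4 fell, with 17.4% of all genes called (10.1% higher and 7.32% lower). The median log2 fold at day 10 was 0.19 over members and 0.01 over all genes. Values by library are given in the order WT, Per1-/- and Per2-/-. To day 7 the log2 folds called ranged from 0.46 (Lrp5) to 1.21 (Sfrp2) among the risers, which also held Fzd1, Fzd4, Rspo2, Rspo3 and Lrp6.

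Sfrp2 had the largest rise of these in log2 fold. It was at 154, 244 and 303 CPM on day 4, 349.7, 867 and 463 CPM on day 7 and 629, 1392 and 1161 CPM on day 10. Every genotype was lowest on day 4 and highest on day 10, and the log2 fold to day 10 was 2.13 ± 0.22 (edgeR adjusted p = 0.00174). Rspo3, an R-spondin, was at 159, 189 and 145 CPM on day 4, 236, 338 and 250.5 CPM on day 7 and 343, 453 and 446 CPM on day 10, a log2 fold of 1.32 ± 0.14 (edgeR adjusted p = 0.00193) to day 10. Rspo2 had log2 folds of 0.95 ± 0.19 to day 7 and 0.86 ± 0.19 to day 10.

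Of the 10 Frizzled receptors 4 rose by day 10, 1 fell and 5 did not pass. Fzd4 was at 43.8, 40.8 and 45.6 CPM on day 4, 75.5, 80.3 and 68.6 CPM on day 7 and 108, 138 and 89.5 CPM on day 10, a log2 fold of 1.33 ± 0.14 (edgeR adjusted p = 0.00166) to day 10. Fzd1 was at 36.5, 36.7 and 35.4 CPM on day 4, 57.5, 75.7 and 57.1 CPM on day 7 and 85, 99.9 and 62.1 CPM on day 10, a log2 fold of 1.15 ± 0.12 (edgeR adjusted p = 0.00191). Days 4 and 10 did not overlap in either gene. Fzd8 had a log2 fold of 1.23 ± 0.17 and Fzd9, near 1 CPM, of 1.49 ± 0.38, while Fzd6 fell by 1.06 on the log2 scale. Both Lrp co-receptors rose while Ror1 and Ror2 did not pass, Lrp5 by 0.88 ± 0.09 (edgeR adjusted p = 0.00171) and Lrp6 by 0.62 ± 0.10 (edgeR adjusted p = 0.00954). Of the R-spondin receptors, Lgr4 rose by 0.49 ± 0.09 and Lgr5 by 1.28 ± 0.34, the latter call being lost with finer clusters, where its fold was -0.25. Wnt11 was the one ligand to rise, by 0.99 ± 0.23.

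Wnt4 (ENSMUSG00000036856, chromosome 4, 137277489 to 137299726, plus strand) fell the most. Its values were 26.7, 12.7 and 13.6 CPM on day 4, 4.29, 2.62 and 1.66 CPM on day 7 and 2.03, 1.75 and 2.03 CPM on day 10, with no overlap between day 4 and the later days, and log2 folds of -2.64 ± 0.27 (edgeR adjusted p = 0.0118) to day 7 and -3.10 ± 0.28 (edgeR adjusted p = 0.00116) to day 10. Tcf7, which encodes a TCF factor, was near or below 1 CPM, at 0.810, 0.584 and 0.975 CPM on day 4, 0.349, 0.155 and 0.195 CPM on day 7 and 0.304, 0.140 and 0.250 CPM on day 10, with a log2 fold of -1.83 ± 0.31 (edgeR adjusted p = 0.0104) to day 10. Wnt10a fell by 1.47 on the log2 scale at a similarly low level.

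The make-up of the class and its matrix genes moved with these days. Fibroblast cluster 2 held 41.1% to 88.7% of the fibroblast-like cells on day 10, at most 7.85% on day 7 and at most 0.124% on day 4. Unnamed cells were 50.5% of the WT and 49.8% of the Per2-/- library of day 10, against 12% to 19.9% of the other libraries. Fibroblast-like cells were 29.7% and 16.1% of those day 10 libraries. Of the 20 fibroblast markers 16 were higher in all genotypes on day 7 and on day 10 than on day 4, and their summed level went from 22988 to 27205 CPM on day 4 to 37470 to 46368 CPM on day 10. Markers of other classes also moved in these cells from day 4 to day 10. In all genotypes 12 of 17 macrophage markers were higher (0 lower), as were 8 of 11 Schwann markers (1 lower). Of 10 mesothelial markers 5 were lower (0 higher). The part of the make-up and of the markers in the members' changes was not tested. Within single clusters present on both days, values per genotype moved the same way as the test in 11 of 12 pairs of day 10 with day 4 for Sfrp2, 11 of 12 for Fzd1, 11 of 12 for Lrp5, 11 of 12 for Lrp6, 10 of 12 for Fzd8, 9 of 12 for Wnt4, 9 of 12 for Rspo3, 8 of 12 for Fzd4 and 6 of 12 for Wnt10a. The day 7 calls fell from 9 to 0 with finer clusters (0% of all genes called) and to 2 with a wider fibroblast-like class (1.55%). They fell to 0 when the Per2-/- day 4 library or any day 7 library was left out (0% to 0.0423%). The day 10 calls fell from 16 to 8 with finer clusters (11.8%) and to 8 without the Per1-/- day 10 library (5.19%).

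**Figure D2:**
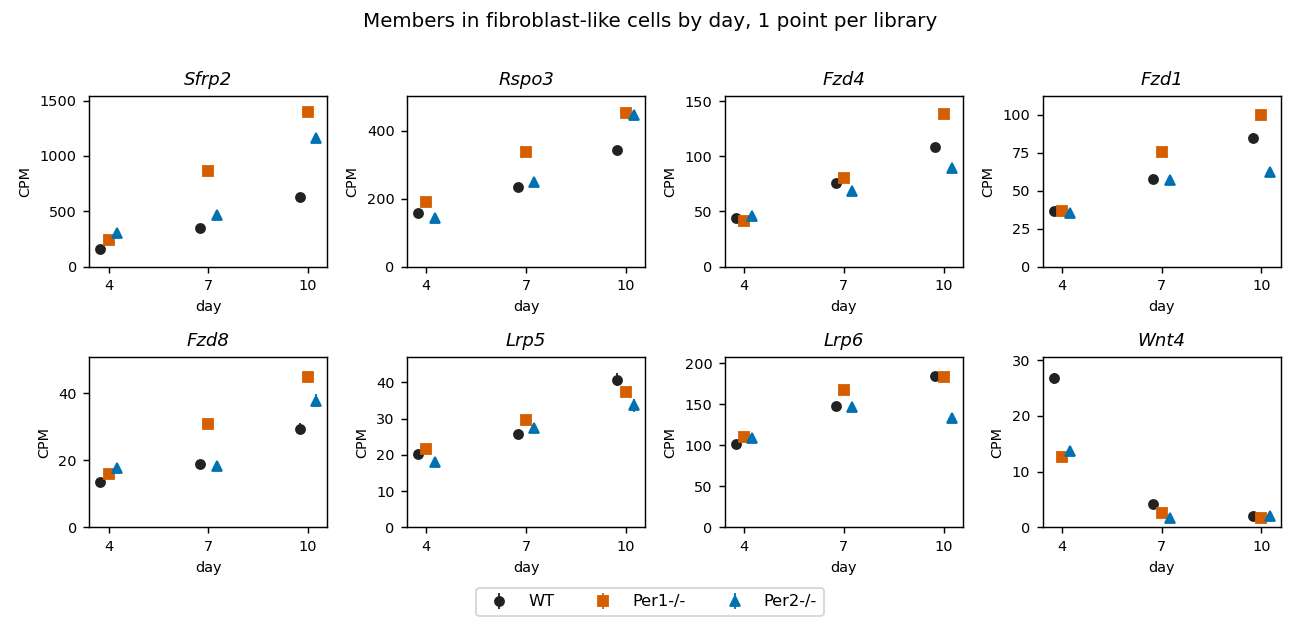
CPM (y axis, from 0) against day (x axis) of 8 members in fibroblast-like cells, with 1 point per library and the genotypes in separate colours and shapes. Bars are exact Poisson 95% intervals for counting error. Sfrp2, Rspo3, Fzd4 and Fzd1 are higher on day 10 than on day 4 in each genotype, and Wnt4 falls from 26.7, 12.7 and 13.6 CPM to 2.03, 1.75 and 2.03 CPM.

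Axin2, the usual readout of beta-catenin signalling, did not pass the test in this class. It was at 10.2, 10.0 and 11.1 CPM on day 4, 11.1, 5.27 and 12.1 CPM on day 7 and 13.8, 5.11 and 7.04 CPM on day 10, a log2 fold to day 10 of -0.41 ± 0.27 (edgeR adjusted p = 0.326). Of 42 other pathway genes tested, 3 rose and 1 fell by day 10, where 17.4% of all genes were called (10.1% higher and 7.32% lower). The membrane inhibitor Apcdd1 rose by 2.74 ± 0.23 (edgeR adjusted p = 7.01e-04) and the feedback inhibitor Nkd1 by 1.70 ± 0.28 (edgeR adjusted p = 0.00918) on the log2 scale, while cyclin D1 (Ccnd1) had a log2 fold of -0.87 ± 0.19.

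Within the fibroblast-like class 4 members reached at least 20 CPM and 3 times the level of the other fibroblast-like cells in a single cluster. These are descriptions with no test. Dkk2 was at 554 CPM in cluster 0, 3.47 times the level of the others. Leading genes of that cluster were Tnn, Adamts3, Apela, Msx1, Dkk2 itself, Tfap2b, Lhx2, Hoxd13, Lgals7 and Tbx4. Msx1, Lhx2, Hoxd13 and Tbx4 are limb genes. Lgr5 (ENSMUSG00000020140, chromosome 10, 115450311 to 115587780, minus strand) was at 125 CPM in cluster 1, 3.22 times the others, and was the higher there in 9 of 9 libraries. C1qtnf3, Meox1 and Lgr5 itself were among the leading genes of cluster 1. Sfrp2 was at 1455 CPM in cluster 2, 4.04 times the others, together with Igf2 and Clec3b as leading genes. Wnt4 was at 23.2 CPM in cluster 11, 3.24 times the others. The leading genes there were Cyp26b1, Alx1, Dlx6, Wfdc2, Actg2, Dlx5, Pax3, Barx1, Pou3f3 and Dio3. These ratios pool the libraries, and for Sfrp2 and Wnt4 they mix day with cluster. Among libraries with at least 20 cells of the cluster, 96.4% of cluster 2 came from day 10 and 92.4% of cluster 11 from day 4. Within a library Sfrp2 was 1.11 to 5.32 times the level of the other fibroblast-like cells (5 libraries) and Wnt4 1.41 to 13.3 times (6 libraries), against 2.59 to 7.79 times for Dkk2 and 1.42 to 7.42 times for Lgr5 (9 libraries each). On day 4 the mean of Wnt4 over genotypes was 38.4 CPM in cluster 11, 32 CPM in cluster 1 and 26.6 CPM in cluster 17. The mean in cluster 11 rests largely on the WT library, with 79.4 CPM in WT, 16.8 CPM in Per1-/- and 19.0 CPM in Per2-/-.

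**Figure D3:**
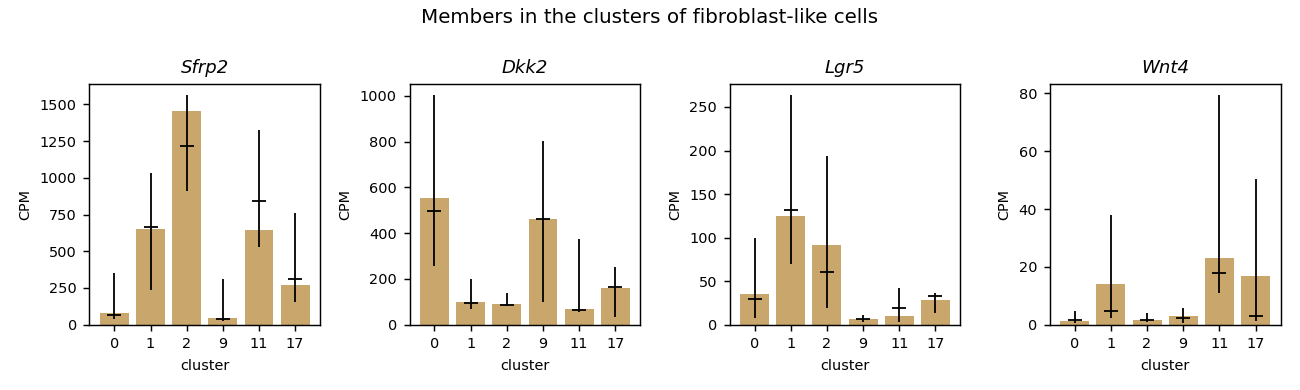
CPM (y axis, from 0) of Sfrp2, Dkk2, Lgr5 and Wnt4 in each cluster of fibroblast-like cells (x axis, cluster number). Bars are the pooled level, black marks the median over libraries with at least 20 cells of the cluster and lines the lowest to highest library. The tallest bars are Sfrp2 in cluster 2, Dkk2 in cluster 0, Lgr5 in cluster 1 and Wnt4 in cluster 11, where Wnt4 was at 23.2 CPM against 16.7 CPM in cluster 17.

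In the neuron-like class 35 members could be tested over days. None rose and 7 fell by day 7 (18% of all genes called, 9.92% higher and 8.08% lower), and 4 rose and 13 fell by day 10 (40.6% called, 20.8% higher and 19.8% lower). Of the Frizzled receptors 7 of 10 fell. Fzd2 was at 29.7, 29.7 and 27.8 CPM on day 4, 16.1, 15.4 and 16 CPM on day 7 and 11.5, 12.5 and 12.5 CPM on day 10, a log2 fold of -1.16 ± 0.11 (edgeR adjusted p = 3.29e-05) to day 10. Days 4 and 10 did not overlap. To day 7 the 7 falls were those of Fzd2 (-0.87), Dkk3 (-1.03), Lrp6 (-0.45), Fzd1 (-0.72), Fzd8 (-0.73), Lrp5 (-0.72) and Fzd6 (-0.62). To day 10 Fzd6 had a log2 fold of -1.42 ± 0.21, Fzd1 of -0.77 ± 0.16 and Fzd10 of -1.22 ± 0.32.

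The co-receptor Lrp6 (ENSMUSG00000030201, chromosome 6, 134446476 to 134566965, minus strand) was at 104, 98.5 and 85.3 CPM on day 4, 70.4, 72.6 and 67.3 CPM on day 7 and 56.6, 62.6 and 45.4 CPM on day 10 in neuron-like cells, a log2 fold of -0.74 ± 0.09 (edgeR adjusted p = 1.53e-04), and Lrp5 had one of -0.86 ± 0.19. Dkk3 had a log2 fold of -1.80 ± 0.23 and Wnt5a of -0.97 ± 0.19. Sfrp2 rose by 1.51 ± 0.24, at 3.45, 5.55 and 4.19 CPM on day 4, 5.92, 4.53 and 10.6 CPM on day 7 and 8.70, 12.2 and 15.7 CPM on day 10, and Ror1 rose by 2.48 ± 0.56. Sfrp1 rose as well. Sfrp1, Sfrp2 and Ror1 are among the members whose neuron-like level was within that of the free RNA references. In fibroblast-like cells over the same days Sfrp2 rose and Ror1 had a log2 fold of 0.86 ± 0.26, which did not pass. Wnt6 was counted mainly in the Per2-/- neuron-like cells, at 0.121, 0.124 and 1.34 CPM on day 4, 0.136, 0 and 3.76 CPM on day 7 and 0, 0.176 and 0.0729 CPM on day 10, and its log2 fold to day 10 of -3.12 ± 1.10 became 0.10 without the Per2-/- day 10 library. Wnt3 rose by 1.51 ± 0.51, but in 2 of 9 within-cluster pairs.

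Cell make-up moved here too. Clusters 4 and 10 held most neuron-like cells on days 4 and 7, and cluster 18 held 60.2% to 83.6% of them on day 10. Cluster 10, led by Gcg, Pln and Pou3f2, held 29.6% to 38.4% on day 4 and 3.80% to 10.4% on day 10. Its neuron markers had a mean log2 ratio to all other cells of 1.12, against 2.67 in cluster 4 and 3.41 in cluster 18. With finer clusters, 1802 kept cells led by Gcg, Pln, Lin28b and Pou3f2 stayed unnamed, at -0.59. The part of such cells in the changes over days was not tested. The summed neuron markers went from 3050 to 3955 CPM on day 4 to 6942 to 8668 CPM on day 10, and the summed fibroblast markers in the same cells from 1573 to 2680 CPM to 785 to 1094 CPM, with 13 of 20 lower in all genotypes. Within clusters the rise to day 10 was kept in 8 of 9 pairs for Sfrp2 and 6 of 9 for Sfrp1 and Ror1. The fall to day 10 was kept in 7 of 9 pairs for Fzd2, Lrp6, Dkk3, Fzd1, Fzd3 and Wnt5a and 6 of 9 for Lrp5 and Fzd6. It was kept in 5 of 9 for Fzd4 and Fzd7 and 4 of 9 for Fzd10, Lef1 and Wnt6. By day 7 the fall was kept in 9 of 9 for each of Fzd2, Fzd6 and Lrp5, 8 of 9 for Dkk3 and Fzd8, 7 of 9 for Lrp6 and 6 of 9 for Fzd1. The part of the fibroblast RNA in these falls was not tested. Without the Per1-/- day 4 or day 10 library 9 and 10 members were called by day 10 in place of 17, with 32.6% and 31.8% of all genes called.

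Whether the changes over days differed between the classes was tested as an interaction. It passed for 11 of 44 members by day 7 (16.4% of all genes called) and for 14 by day 10 (31.4%), so the share of members was near that of all genes by day 10. By day 10 the change was lower in neuron-like than in fibroblast-like cells for 12 members (16.8% of all genes) and higher for Wnt4 and Ror1 (14.7%). Fzd4 had the lowest value, -2.09 ± 0.16 (edgeR adjusted p = 3.49e-05), since its log2 fold to day 10 was 1.33 in fibroblast-like and -0.75 in neuron-like cells, where 5 of 9 within-cluster pairs fell. Fzd1, Lrp5 and Lrp6 likewise rose in the fibroblast-like and fell in the neuron-like class, with interaction values of -1.95 ± 0.20, -1.76 ± 0.14 and -1.36 ± 0.10. Of the Frizzled receptors 7 of 10 were called in this direction, as were both Lrp co-receptors. Wnt4 differed the other way, by 3.20 ± 0.46 (edgeR adjusted p = 7.32e-04). In neuron-like cells it was at 13.5, 19.3 and 18.4 CPM on day 4, 24.6, 30.9 and 16 CPM on day 7 and 16, 11.5 and 25.6 CPM on day 10, with a log2 fold to day 10 of 0.20 ± 0.30 that did not pass. The values for Rspo3, -0.84 by day 7 and -1.41 by day 10, turned to 0.74 and 0.83 with finer clusters.

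**Figure D4:**
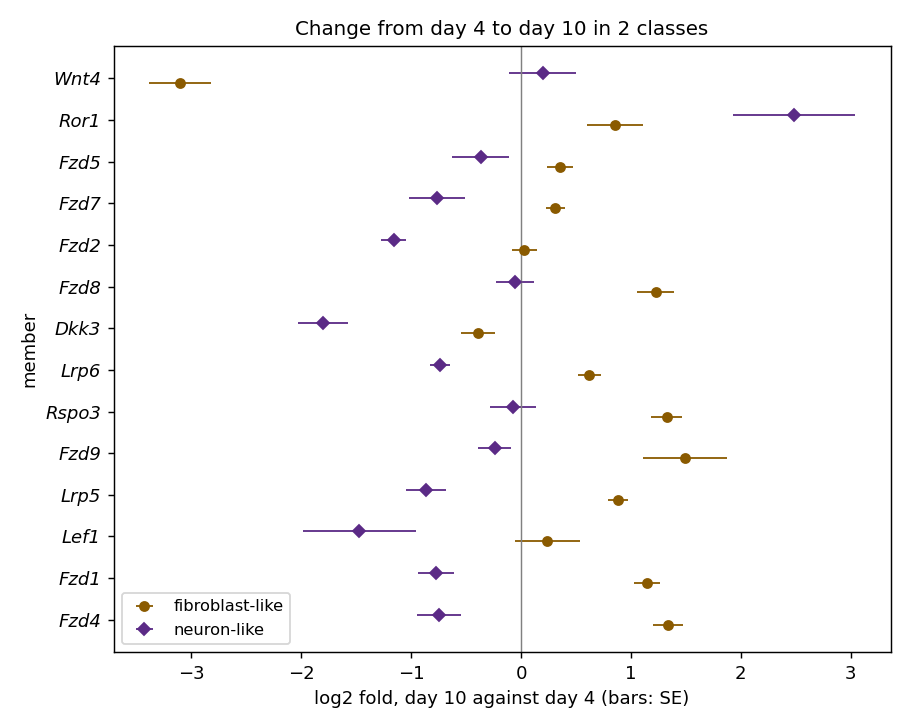
Log2 fold of day 10 against day 4 (x axis) with its standard error for the 14 members whose change differed between classes (y axis), in fibroblast-like cells (brown circles) and neuron-like cells (purple diamonds). Receptors such as Fzd4, Fzd1, Lrp5 and Lrp6 lie right of 0 in fibroblast-like and left of 0 in neuron-like cells, and Wnt4 is far left only in the fibroblast-like class.

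In macrophage-like cells the members were low. All 38 called members of 40 tested were lower than in fibroblast-like cells, where 85.2% of all genes were called and 45% were lower and 40.2% higher, and the median log2 fold was -5.03 over members (-4.94 with Notum at the bound below) and -0.09 over all genes. The free RNA references were at 0.925% to 1.69% of their fibroblast-like level here, and 19 of 50 members were at or under that. By the edgeR test the log2 fold was -7.23 ± 0.21 for Rspo3, -6.65 ± 0.24 for Lgr5 and -6.49 ± 0.31 for Sfrp1. Wnt5a, Sfrp2, Ror2 and Rspo2 had log2 folds from -6.27 to -6.0. In these classes 27 members passed the filter in both classes, of which 0 were higher and 25 lower, and the other 13 called, with Wnt2, Ror1, Wnt16 and Wnt11 among them, passed through the fibroblast-like cells alone. Notum, another of these 13, had 0 UMI in this class and was at least 22.6-fold lower, counted against 3 UMI over the class.

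Of the 27 members at 5 CPM or more in fibroblast-like cells, Lrp6 and Lrp5 had the largest part of that level, 61.2% and 59.2%, with log2 folds of -0.68 ± 0.08 and -0.61 ± 0.14. Among the same 27 Fzd7 and Fzd5 followed, at 45.8% and 35.6% of it. Over days, 0 of 21 members were called by edgeR on day 7, against 0.465% of all genes. At an unadjusted p under 0.05 in edgeR there was 1, Lrp6, where 19.7% of all genes were. DESeq2 called 1 member, against 4.11% of all genes. The smallest p on day 7 belonged to Lrp6 (0.55 ± 0.12), Sfrp1 (-0.65 ± 0.29) and Fzd2 (-0.94 ± 0.48). There were 2 calls on day 10 against 16.2% (8.64% higher and 7.56% lower). Lrp6 rose, from 53.7, 57.5 and 54.9 CPM on day 4 to 62.9, 76.8 and 100.4 CPM on day 7 and 85.8, 96.3 and 98.4 CPM on day 10, a log2 fold of 0.83 ± 0.12 (edgeR adjusted p = 0.00515). Day 10 was above day 4 in every genotype. Sfrp2 also rose, by 1.12 ± 0.25 (edgeR adjusted p = 0.0237). It was at 1.60% of its fibroblast-like level, within the range of the free RNA references, and it also rose in the fibroblast-like cells. The part of free RNA in this rise was not tested. Cluster 8 held most macrophage-like cells on days 4 and 7 and cluster 15 held 73.7% to 94.2% on day 10. With a term for Y-linked RNA in the fit the edgeR adjusted p was 0.0560 for Lrp6 and 0.162 for Sfrp2.

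The astrocyte-like cells, a cluster of 977 cells with Aqp4, Gfap, Fabp7 and Hes5 among its leading genes, were compared in the same way. Sums with at least 20 cells came from 8 libraries (the Per1-/- day 10 library held 17 such cells), and 21.3% of the cluster's cells had been left out as doublets. Against fibroblast-like cells 15 members were higher and 23 lower of 44 tested, with 64% of all genes called, 29.5% higher and 34.6% lower. Between these classes 34 members passed the filter in both classes, of which 10 were higher and 21 lower. The median log2 fold was -0.69 over members and -0.05 over all genes. Free RNA references were at 6.75% to 10.0% of the fibroblast-like level, and 6 of 50 members, with Sfrp2, Wnt2 and Wnt16 among them, were at or under that.

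Wnt1 (ENSMUSG00000022997, chromosome 15, 98789857 to 98793837, plus strand), Wnt3 and Wnt7a (ENSMUSG00000030093, chromosome 6, 91363981 to 91411363, minus strand) are ligands of the developing neural tube. Of their UMI in all kept cells, 94%, 60.7% and 85.4% were in astrocyte-like cells, which made up 0.202% to 3.27% of a library's cells. Wnt7a was at 2.46 to 6.11 CPM (median 4.38 CPM) there and at 0 to 0.0197 CPM (median 0 CPM) in fibroblast-like cells. Over the libraries Wnt1 had 126 UMI in astrocyte-like and 5 in fibroblast-like cells, Wnt3 201 and 15, and Wnt7a 103 and 6. By pooled CPM Wnt1 was 825-fold higher (exact binomial 95% interval 344 to 2586), Wnt3 439-fold higher (exact binomial 95% interval 259.8 to 799) and Wnt7a 562-fold higher (exact binomial 95% interval 249.7 to 1568), with intervals for counting error only. These 3, Wnt7b and Fzd10 passed the filter on counts only through the astrocyte-like cells. That favours a difference, so no test is given for them. Wnt1 was at 2.14, 8.14 and 9.75 CPM on day 4, 5.15 and 3.61 CPM in WT and Per2-/- on day 7 and 2.76 and 16 CPM in the same genotypes on day 10. In the 50 astrocyte-like cells of the Per1-/- day 7 library Wnt1 and Wnt3 both had 0 UMI, which allows up to 2.08 CPM. Wnt7b was at 7.45 CPM in pooled astrocyte-like cells, and Wnt5b was higher by 1.38 ± 0.22 on the log2 scale.

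Of the Frizzled receptors 4 were higher, with Fzd10 kept by the filter through these cells alone, and 6 were lower. Axin2, Lef1 and Tcf7 were all higher in the same cells. Fzd10 was at 16.7 to 54.3 CPM (median 32.1 CPM) and Fzd3 at 236 to 462 CPM (median 337 CPM), with a log2 fold of 4.63 ± 0.10 for Fzd3. Fzd9 had a log2 fold of 5.35 ± 0.28. Fzd3 and Fzd9 were thus higher than in fibroblast-like cells both here and in neuron-like cells. Both contrasts share the fibroblast-like sums. Axin2 (ENSMUSG00000000142, chromosome 11, 108920349 to 108950783, plus strand) was at 36.1 to 99.2 CPM (median 62.6 CPM) against 5.11 to 13.8 CPM (median 10.2 CPM), a log2 fold of 2.31 ± 0.13 (edgeR adjusted p = 4.88e-08), and Tcf7 (ENSMUSG00000000782, chromosome 11, 52252371 to 52283014, minus strand) was at 6.22 to 31 CPM (median 15.1 CPM) against 0.140 to 0.975 CPM (median 0.304 CPM), a log2 fold of 4.85 ± 0.24 (edgeR adjusted p = 1.52e-08). Neither range overlapped that of the fibroblast-like cells. Lef1 was higher by 1.84 ± 0.51 at 1.63 CPM. The secreted inhibitor Wif1 was at 43.9 and 68.5 CPM in the WT libraries of days 4 and 7. Its values elsewhere were 11.1 CPM or less. Among the lower members were Sfrp2 (-4.92), Wnt2 (-4.73), Wnt16 (-4.62) and Dkk2 (-3.92).

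**Figure D5:**
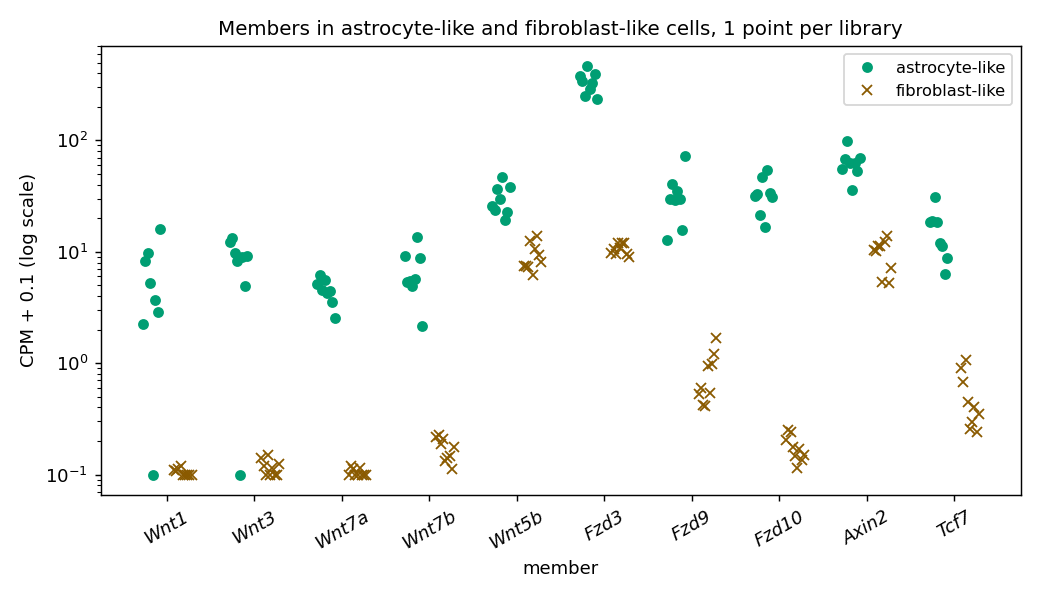
CPM + 0.1 on a log axis of 10 members (x axis) in astrocyte-like cells (green circles) and fibroblast-like cells (brown crosses), with 1 point per library holding at least 20 cells of the class. Every astrocyte-like point lies above the fibroblast-like points of the same gene, apart from the Per1-/- day 7 library, in which Wnt1 and Wnt3 were at 0. Wnt1, Wnt3, Wnt7a, Wnt7b and Fzd10 passed the filter through the astrocyte-like cells alone, which favours such a separation.

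Schwann-like cells, the glia of peripheral nerves, differed in 35 of 42 members (68.8% of all genes called), 8 higher and 27 lower (29.1% and 39.7% of all genes). The TCF and LEF genes led the higher ones. Tcf7 was at 9.84 to 22.1 CPM (median 12.6 CPM), a log2 fold of 4.92 ± 0.27 (edgeR adjusted p = 5.61e-09), and Lef1 at 3.52 to 27.4 CPM (median 9.84 CPM) against 0.121 to 0.548 CPM (median 0.467 CPM), a log2 fold of 4.65 ± 0.37 (edgeR adjusted p = 1.63e-07). The ranges did not overlap those of fibroblast-like cells in either gene. Axin2, at 5.13 to 20.5 CPM (median 10.4 CPM), had a log2 fold of 0.10 ± 0.12 (edgeR adjusted p = 0.468) and did not pass. Between these classes 33 members passed the filter in both classes, of which 7 were higher and 22 lower. Wnt10b, at 1.78 CPM in pooled Schwann-like cells, passed there alone. Of the ligands Wnt6 and Wnt16 were higher, by 3.37 ± 0.48 and 1.81 ± 0.31, and of the receptors Fzd3, Fzd8 and Lgr4, by 2.34 ± 0.06, 0.67 ± 0.24 and 0.22 ± 0.06. Rspo1, Wif1 and Dkk1 had 0 UMI in the class and were at least 27.4-, 6.60- and 3.56-fold lower, against 3 UMI over the class. Sfrp1 was at 43.2 to 247 CPM (median 80.4 CPM), a log2 fold of -1.52 ± 0.25, while Sfrp2 and Dkk2 had log2 folds of -6.86 ± 0.19 and -7.23 ± 0.18. Rspo3, Lgr5, Ror1, Ror2, Rspo2 and Wnt11 had log2 folds from -7.29 to -5.60. Wnt2, with 2 UMI in the class, was 138-fold lower (exact binomial 95% interval 38.2 to 1140.4, for counting error only) by pooled CPM. Wnt2, Rspo1, Wif1 and Dkk1 passed the filter through the fibroblast-like cells alone, which favours a difference, so their folds are descriptions with no test. The median over members was -1.52, against -0.11 over all genes. References of free RNA were at 1.17% to 8.37%, and 23 of 50 members were at or under that.

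In skeletal muscle-like cells 11 members were higher and 26 lower of 42 (72.3% of all genes called, 35.1% higher and 37.2% lower). Fzd9 had the largest fold. It was at 10.5 to 25.4 CPM (median 16.3 CPM) against 0.310 to 1.58 CPM (median 0.499 CPM) in fibroblast-like cells, a log2 fold of 4.43 ± 0.26 (edgeR adjusted p = 2.79e-08), and the ranges did not overlap. Wnt4 had a log2 fold of 3.30 ± 0.16 (edgeR adjusted p = 7.48e-09). By library it was at 172, 123 and 182 CPM on day 4, 60.8, 30.7 and 33.2 CPM on day 7 and 37.3, 13.5 and 29 CPM on day 10, so the day 4 values were the highest in this class too, a description with no test over days. Rspo1 was higher by 2.59 ± 0.35 and Wnt6, Wnt10a, Lgr6, Tcf7, Lef1, Fzd3 and Fzd7 by 0.26 to 2.44. Between these classes 37 members passed the filter in both classes, of which 10 were higher and 24 lower. Lgr5, Wnt2, Wnt16 and Dkk2 were lower, with log2 folds of -4.27 ± 0.23, -4.08 ± 0.37, -3.30 ± 0.26 and -3.27 ± 0.23, as were Sfrp1, Rspo2 and Sfrp2, from -2.98 to -2.59. Sfrp4, with 2 UMI in the class, was 15.3-fold lower (exact binomial 95% interval 4.18 to 127, for counting error only) by pooled CPM. It passed the filter through the fibroblast-like cells alone, which favours a difference, so this is a description with no test. The collagen and proteoglycan references were at 15.1% to 44.4% of their fibroblast-like level in this class, against 0.925% to 1.69% in macrophage-like cells, and 17 of 50 members, those just named as lower among them, were at or under the highest. In pooled CPM Sfrp2 was at 97.5 here and 8.42 in macrophage-like cells, and Dkk2 at 28.9 and 4.31. The median over members was -0.77, against -0.01 over all genes. The call for Lgr4 (-0.41) was lost with finer clusters.

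In mesothelial-like cells, the lining of body cavities, 9 members were higher and 11 lower of 42 over the 7 libraries with at least 20 such cells (33.3% of all genes called, 16% higher and 17.3% lower). Rspo1 (ENSMUSG00000028871, chromosome 4, 124986430 to 125009099, plus strand) stood out. It was at 139 to 285 CPM (median 171 CPM) against 0.726 to 6.87 CPM (median 1.63 CPM) in fibroblast-like cells, with no overlap and a log2 fold of 6.52 ± 0.37 (edgeR adjusted p = 3.79e-07). These cells held 40.5% of all Rspo1 UMI. Between these classes 39 members passed the filter in both classes, of which 8 were higher and 11 lower, and Wnt7b, at 1.84 CPM in pooled mesothelial-like cells, passed there alone. Lgr6 was higher by 2.49 ± 0.69, Wnt2b by 2.24 ± 0.65, Wnt9a by 1.73 ± 0.17, Sfrp2 by 1.60 ± 0.26 and Wnt4 by 1.54 ± 0.23. Lgr5, Dkk2, Wnt2, Rspo2 and Ror2 were lower, with log2 folds of -4.0 ± 0.34, -2.86 ± 0.30, -2.14 ± 0.41, -1.76 ± 0.40 and -1.75 ± 0.14. The collagen and proteoglycan references were at 31.7% to 176% of their fibroblast-like level, and 36 of 50 members, these 5 among them, were at or under the highest. In pooled CPM Dkk2 was at 34.2 here and 4.31 in macrophage-like cells, Rspo2 at 8.63 and 0.398 and Ror2 at 6.49 and 0.255. The median over members was 0.05, against -0.06 over all genes.

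Genotypes were compared over all days in an additive fit, which asks for a difference shared by the 3 days. By edgeR 0 of 44 members in fibroblast-like, 0 of 35 in neuron-like and 0 of 21 in macrophage-like cells passed for Per1-/- against WT (0%, 0% and 0.00788% of all genes), with 14, 2 and 1 at an unadjusted p under 0.05, where 8.93%, 4.73% and 7.13% of all genes were. For Per2-/- against WT 0 passed in each class (0%, 0.00675% and 0% of all genes), with 6, 6 and 3 at an unadjusted p under 0.05, where 7.02%, 5.87% and 15.5% of all genes were. By DESeq2 there were 2, 0 and 0 calls for Per1-/- (1.62%, 0.162% and 0.512% of all genes) and 2, 0 and 1 for Per2-/- (0.645%, 0.250% and 1.27%).

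The members with the smallest p did not pass. In fibroblast-like cells Per1-/- against WT gave 1.11 ± 0.21 (edgeR adjusted p = 0.396) for Sfrp2, higher than WT on 3 of 3 days, 0.58 ± 0.17 (edgeR adjusted p = 0.416) for Fzd8 and -1.50 ± 0.46 (edgeR adjusted p = 0.429) for Dkk2. Per2-/- against WT gave 1.92 ± 0.47 (edgeR adjusted p = 0.543) for Sfrp5, 0.85 ± 0.21 (edgeR adjusted p = 0.547) for Sfrp2 and 1.89 ± 0.51 (edgeR adjusted p = 0.592) for Rspo1. In neuron-like cells Per1-/- gave 0.81 ± 0.31 for Fzd10, 0.75 ± 0.33 for Sfrp1 and -1.06 ± 0.52 for Sfrp5. The smallest p for Per2-/- there belonged to Wnt6 (3.93 ± 0.72 (edgeR adjusted p = 0.173)), Fzd10 (0.99 ± 0.30 (edgeR adjusted p = 0.605)) and Sfrp2 (0.69 ± 0.24 (edgeR adjusted p = 0.684)). In macrophage-like cells Per1-/- gave -2.45 ± 0.73 for Fzd6, 0.26 ± 0.12 for Lrp6 and -0.47 ± 0.23 for Dkk2, and the smallest p for Per2-/- belonged to Sfrp2 (1.23 ± 0.25 (edgeR adjusted p = 0.190)), Lrp6 (0.38 ± 0.12 (edgeR adjusted p = 0.232)) and Sfrp1 (0.97 ± 0.31 (edgeR adjusted p = 0.236)). Without the Per1-/- day 4 library 4 members passed for Per1-/- against WT in fibroblast-like cells, with 1.97% of all genes called. Without the Per2-/- day 4 library 3 passed for Per2-/- against WT in macrophage-like cells, with 9.69% of all genes called.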

How the data were processed

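The 9 libraries are 10x Genomics 3' libraries, 1 per genotype and day, grouped by their labels. The values are deposited UMI counts for each gene and barcode, which the authors made with Cell Ranger 4.0.0 (days 4 and 7) or 6.0.0 (day 10) per the file headers, while the processing notes of the submitters name 7.1, on mm10. The feature tables differ between day 10 and the other days, so that day and table cannot be told apart, and the 30406 gene identifiers in both were used (at least 99.3% of the UMI of a library). The members, the pathway list and the markers were chosen with earlier results of these data known.

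Cells were barcodes of 3000 UMI or more with a mitochondrial share of 20% or less, the limits of the study's methods. Doublets were scored with Scrublet in scanpy 1.11.5 and the highest scores left out by rank, 0.8% per 1000 barcodes. Cells were clustered with 2000 variable genes, 30 components, 15 neighbours and Leiden resolution 1 (leidenalg 0.10.2), which gave 27 clusters, 18 of them named by markers. The authors' annotation was not used, so classes are rebuilt and end in "-like". A further 4 clusters (15428 cells) with fibroblast markers were left unnamed. They had raised cartilage markers or were led by adipocyte genes or by neuropeptide or synapse genes.

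Counts were summed per class and library (at least 20 cells). CPM carry exact Poisson 95% intervals where drawn, which cover counting error only. Tests were edgeR 4.0.16 (R 4.3.3) with TMM, filterByExpr and two-sided quasi-likelihood F-tests, Benjamini-Hochberg adjusted over all genes tested, called under 0.05. Classes were compared with the library as a block, and days and genotypes in an additive fit of 9 sums. With 1 library per genotype and day, the other genotypes or days serve as repeats, and p-values measure only the spread between these libraries. The labels do not say which libraries share a preparation, and Xist and Y-linked RNA differed between days within Per1-/-. The scripts were tested on simulated data.

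Members named with statistics were those past the threshold, at most the 12 with the largest folds between classes and at most the 10 with the smallest adjusted p otherwise, or the 3 with the smallest p where fewer passed. Others named were chosen after their values were seen. Alternatives were DESeq2 1.42.0, its size factors in edgeR, no filter, doublets kept, Leiden resolution 2, a fibroblast-like class with the unnamed clusters, a Y-linked covariate and leaving out each library.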

Additional observations from a re-analysis of the deposited data

Results flagged for a closer look

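The change from day 4 differed between neuron-like and fibroblast-like cells for 11 of 44 members by day 7 (16.4% of all genes, 9.81% lower and 6.63% higher) and 14 by day 10 (31.4% of all genes, 16.8% lower and 14.7% higher), by the interaction term of the edgeR test at an adjusted p under 0.05. Values are the log2 fold over days in neuron-like cells minus that in fibroblast-like cells. To day 7 the Frizzled receptors had -1.54 (Fzd1), -1.0 (Fzd2), -1.45 (Fzd4), -0.68 (Fzd7) and -1.16 (Fzd8). The co-receptors Lrp5 and Lrp6 had -1.24 and -1.01. Rspo3 had -0.84, which turned positive with finer clusters, and Dkk3 -1.01. The ligands Wnt4 and Wnt10a went the other way, with 3.02 and 2.39.

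To day 10 the Frizzled receptors had -1.95 (Fzd1), -1.20 (Fzd2), -2.09 (Fzd4), -0.71 (Fzd5), -1.09 (Fzd7), -1.36 (Fzd8) and -1.74 (Fzd9). Lrp5 and Lrp6 had -1.76 and -1.36, Rspo3 -1.41 (positive with finer clusters), Dkk3 -1.36 and Lef1 -1.76. Wnt4 and Ror1 were positive, at 3.20 and 1.41. The fibroblast markers fell in the neuron-like cells and rose in the fibroblast-like cells over these days, and their part in these values was not tested. No genotype and day held more than 1 library, so no group could be examined for a sample far from the others.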

How the results depend on the processing

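The 6 class comparisons kept their count of called members within 1.5 times the main count under every alternative run, with 37 to 38, 38 to 38, 33 to 36, 37 to 38, 36 to 38 and 19 to 22 calls (neuron-, macrophage-, Schwann-, muscle-, astrocyte- and mesothelial-like) when each library was left out in turn. Over days the counts were less stable, and the cause was not tested. In fibroblast-like cells the 9 calls of day 7 became 0 with Leiden resolution 2, 2 with the wider class and 0 to 9 without single libraries, with 0 without the Per2-/- day 4 or any day 7 library, 1 without Per1-/- day 4, 2 without WT day 4, 3 without WT day 10 and 4 without Per1-/- day 10. The 16 calls of day 10 became 8 with resolution 2 and 8 to 15 without single libraries. In neuron-like cells the 7 calls of day 7 became 13 with no filter and 3 to 9 without single libraries (3 without Per1-/- day 7, 4 without WT day 4 or WT day 7), and the 17 of day 10 became 9 to 15 (9 without Per1-/- day 4, 10 without Per1-/- day 10, 11 without Per2-/- day 4). In macrophage-like cells day 7 went from 0 to 1 with DESeq2 and to 1 with no filter, and to 0 to 1 without single libraries, and day 10 from 2 to 0 with the Y-linked covariate and to 1 to 4 without single libraries. The interaction by day 7 fell from 11 to 7 with resolution 2, and was 8 to 11 and, by day 10, 11 to 16 without single libraries.

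Between genotypes DESeq2 called 2 members for Per1-/- and 2 for Per2-/- against WT in fibroblast-like cells, among them Sfrp2, and 1 for Per2-/- in macrophage-like cells. With no filter 2 (Wnt6 and Fzd10) were called for Per2-/- in neuron-like and 1 (Sfrp2) in macrophage-like cells. Without single libraries these counts were 0 to 4 and 0 to 0 in fibroblast-like, 0 to 1 and 0 to 0 in neuron-like and 0 to 0 and 0 to 3 in macrophage-like cells, for Per1-/- and Per2-/-. Some single values changed sign. With resolution 2 these were Lgr4 in muscle-like cells (0.0013), Lgr5 to day 10 in fibroblast-like cells (-0.25) and the Rspo3 interactions (0.74 by day 7 and 0.83 by day 10). Wnt6 to day 10 in neuron-like cells ranged from -4.21 (without the Per1-/- day 10 library) to 0.10 (without that of Per2-/- day 10), and Sfrp1 for Per1-/- in neuron-like cells was -0.85 with the Y-linked covariate. Of the other single-member values under alternatives 4252 kept direction and side of the threshold, 276 lost their call and 15 gained one. No paired analysis was possible because the labels give no replicate numbers, beyond the library block between classes and the terms for day and genotype that the fits already hold. Depth limits the members under 1 CPM and the classes of few cells, and the WT day 10 library was the shallowest.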

Other observations

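Unnamed cells with fibroblast markers held further local highs, given as levels with no test. Axin2 was at 33.9 CPM in cluster 7, 3.45 times its level in the fibroblast-like cells and higher there in 9 of 9 libraries, with 24.2 to 41 CPM. That cluster of 3890 cells was led by Otor, Pmch, Tac1 and Calca. Rspo2 was at 85.2 CPM in cluster 6, 3.14 times the fibroblast-like level, and 1.55 to 2.99 times it within the 3 libraries with at least 20 such cells. Cluster 6 was led by the cartilage genes Mia, Hapln1, Comp and Epyc, and 91.6% of its kept cells came from the Per2-/- day 10 library. The ligand Wnt6 had 59.7% of its UMI in unnamed cells. It was at 8.15 CPM in cluster 3, between 4.57 and 18.7 CPM over 9 libraries, beside Foxd1, Pax9, Zic1 and Zic2 as leading genes.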
